A study of Mus musculus with 1024 samples.

Results

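The 10 genes followed here, of the Notch pathway and of arterial endothelial identity and read in single cells of the mouse aorta, were the receptors Notch1, Notch3 and Notch4, the ligands Dll4, Jag1 and Jag2, the target genes Hey1 and Hey2, and the arterial genes Efnb2 and Sox17. They were taken by name from the 24422 gene lines of the count table, and all 10 members had a line. Each was read across the sorted cell class, the genotype and the sort, in wells with at least 20000 gene counts and 500 genes, which left 784 of 1024 wells.

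The cells came from aortas of 3-month-old mice. The KO wells are from amotl2 ec-/ec- mice, and the labels give all wells, WT included, the same strain entry, Amotl2flow/flow / Cdh5-RREert /ROSA26-EYFP. In these mice the loxP-flanked Amotl2 gene is deleted by a tamoxifen-inducible Cre under the Cdh5 promoter, which acts in endothelial cells, and the ROSA26-EYFP allele reports recombination. The Endothelial wells hold cells sorted as Cd31+ and Cd45-, and the DoubleNegative wells hold Cd31- and Cd45- cells taken as controls. The labels name no mouse: 6 WT and 6 KO mice went into 2 preparations, and the sort number of a well was taken as its preparation. Gene counts were therefore summed over the wells of each gate, genotype and sort, which gave 8 sums, and the 2 sums of a genotype were its replicates. All p-values measure the spread between these sums only. In sort 1 the WT and KO wells were on separate plates, and for that sort the effects of plate and of genotype cannot be told apart.

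Notch receptors are single-pass membrane proteins that are cleaved when a ligand on a neighbouring cell binds them. The released intracellular domain joins the DNA-binding protein RBPJ and switches on target genes, among them the Hey family of repressors. In the arterial wall Notch signalling between endothelial cells favours arterial over venous identity, with Dll4 and Sox17 upstream and Efnb2, the arterial ephrin ligand, downstream. Jag1 on endothelial cells signals to Notch3 on smooth muscle cells, where it supports the contractile state.

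In the mouse build GRCm38 (GENCODE M21) the receptors lie at chr2:26457903-26516663 (Notch1), chr17:32120820-32166852 (Notch3) and chr17:34564268-34588503 (Notch4). The ligands lie at chr2:119325784-119335962 (Dll4), chr2:137081456-137116644 (Jag1) and chr12:112907819-112929776 (Jag2). The target genes lie at chr3:8663359-8667256 (Hey1) and chr10:30832359-30842801 (Hey2), and the arterial genes at chr8:8617434-8661242 (Efnb2) and chr1:4490931-4497354 (Sox17). The counts sum reads over exons of the whole gene. Dll4 overlaps the antisense gene Gm14207, which has its own line in the table, and the strand setting of the counting is not given in the sources used here.

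Hey2 is a direct target of the RBPJ complex, and its promoter is shown because it was the only one of the 8 member promoters found in the RefSeq table (GRCm38.p6) that held the core RBPJ motif. Hey1 and Sox17 had no entry. The motif searched was TGGGAA on either strand, and TTCCCA is its reverse complement. The 260 bases run from 250 bases before the transcript start to 10 bases after it, on the minus strand of chr10:30842774-30843033, with the motif in capitals.
Hey2: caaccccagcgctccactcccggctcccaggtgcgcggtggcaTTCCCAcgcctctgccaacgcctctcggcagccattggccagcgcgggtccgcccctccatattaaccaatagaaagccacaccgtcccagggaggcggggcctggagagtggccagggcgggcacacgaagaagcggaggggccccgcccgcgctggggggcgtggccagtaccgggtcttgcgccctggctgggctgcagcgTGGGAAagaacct
The matches begin 207 bases before the start, on the opposite strand, and 3 bases before it, on the gene's strand. Of 32851 mouse promoters of 300 bases, 25.6% held TGGGAA at least once and 3.79% held it 2 or more times. Both Hey2 matches also fit the longer form GTGGGAA, which 0.256% of promoters held 2 or more times. A match of letters describes the sequence and is not a measurement of binding.

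The 4 Endothelial sums held 676 wells (50 to 302 each) and the 4 DoubleNegative sums 108 wells (12 to 42 each), with total gene counts of 926398 to 94881185 per sum. The WT sort 1, WT sort 2, KO sort 1 and KO sort 2 sums are given in this order below. The labelled cell classes held against their markers: 10 endothelial markers summed to between 14408 and 17022 CPM (a gene's counts scaled to a common total of gene counts) in the Endothelial sums and to between 24.8 and 1233 CPM in the DoubleNegative sums. Smooth muscle markers reached 21433 to 54205 CPM and fibroblast markers 5981 to 43432 CPM in the DoubleNegative sums. After clustering, 660 Endothelial wells were endothelial-like, 14 smooth muscle-like and 2 fibroblast-like. Of the DoubleNegative wells, 70 were smooth muscle-like, 37 fibroblast-like and 1 was endothelial-like, in WT sort 2. The targeted gene Amotl2 stood at 59.9, 94.0, 51.9 and 45.7 CPM in the Endothelial sums, a difference of -0.66 log2 (SE 0.32) in KO against WT that did not pass the test (adjusted p = 0.9995, edgeR quasi-likelihood test). These counts cover all exons of the gene, whereas the paper verified recombination by the loss of a single Amotl2 exon and by YFP. EYFP stood at 2.38 and 0.35 CPM in the WT and at 113 and 85.5 CPM in the KO Endothelial sums. With a log2 difference of 6.00 (SE 0.64) it also missed the threshold (adjusted p = 0.0596, edgeR), which it passed with the sort number as a block (adjusted p = 0.000611).

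Which members are read in endothelial and which in Cd31-negative cells was asked first. Notch1, Jag1, Hey2 and Efnb2 were higher in the Endothelial wells, Notch3 was higher in the DoubleNegative wells, and Hey1 did not pass the test. Dll4, Jag2 and Sox17 had 1 count or none in the DoubleNegative wells, and Notch4 had counts in 1 DoubleNegative sum. In this comparison 2214 of 11579 genes tested were called (19.1%, edgeR, Benjamini-Hochberg adjusted p under 0.05). Of all genes tested, 9.57% were called higher and 9.55% lower in the Endothelial wells, and 29.4% had an unadjusted p under 0.05. All 10 members passed the filter on low counts. Dll4, Jag2 and Sox17 passed through the Endothelial sums alone, so their direction was fixed by the filter and their levels are given as a description. Notch4 was over the cutoff of the filter in 4 Endothelial sums and 1 DoubleNegative sum, and its levels are given as a description too.

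**Figure D1:**
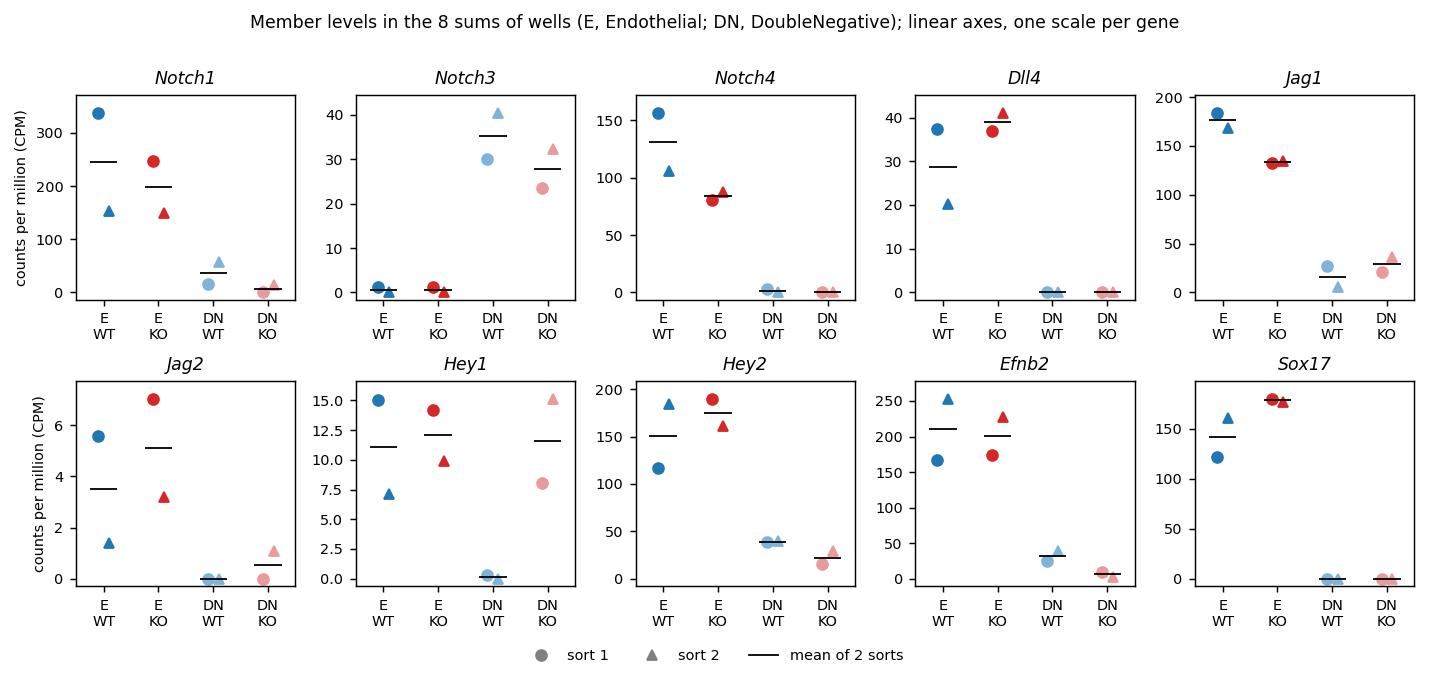
Level of each member in CPM (linear axis, 1 scale per gene) in the 8 sums, with 1 point per sort and the mean of the 2 sorts as a line. All Endothelial (E) sums stand above all DoubleNegative (DN) sums for every member except Notch3, which stands the other way, and Hey1, which overlaps.

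Notch1, the receptor most widely detected here, was read at 338, 153, 248 and 149 CPM in the Endothelial sums and at 16.3, 56.7, 0.21 and 14.03 CPM in the DoubleNegative sums. Sort 1 was higher than sort 2 in both genotypes of the Endothelial wells, and the gates did not overlap. The difference was 3.31 log2 (SE 0.98, adjusted p = 0.0374, edgeR). This call was lost with genotype and sort as a replicate block (adjusted p = 0.0534) and in 6 of the 8 fits that leave out 1 sum, which are all but those without the DoubleNegative sums of KO sort 1 and WT sort 2. In the WT sort 2 DoubleNegative sum, 45 of the Notch1 counts came from the 1 endothelial-like well, and without it the level was 11.6 CPM.

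Notch4, the receptor known mainly from endothelium, was read at 157, 106, 80.3 and 87.4 CPM in the Endothelial sums. In the DoubleNegative sums it was at 3.17 CPM in WT sort 1 and had no count in the others. Its fitted difference was 6.40 log2 (SE 0.96). This is given as a description, since Notch4 was over the cutoff of the filter in only 1 DoubleNegative sum.

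Notch3, the receptor of mural cells, ran the opposite way, at 30.0, 40.5, 23.4 and 32.4 CPM in the DoubleNegative sums and at 1.25, 0, 1.17 and 0 CPM in the Endothelial sums. It was 5.68 log2 lower in the Endothelial wells by the fitted difference (-5.68, SE 1.05, adjusted p = 0.003245, edgeR). Of the 161 Notch3 counts in Endothelial wells, 66 (41.0%) were in the 16 wells that clustered as smooth muscle-like or fibroblast-like, and 86 were in a small endothelial-like cluster described below.

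Among the ligands, Dll4 was read at 37.4, 20.1, 36.8 and 41.1 CPM in the Endothelial sums and had no count in any of the 108 DoubleNegative wells. Against a floor of 3 counts over the DoubleNegative wells (0.167 CPM) it was at least 203-fold higher in the Endothelial wells. By the same floor of 3 counts, no count in 108 wells allows a share of wells of up to 2.78%, for counting error only.

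Jag1 was read in both gates, at 184, 168, 133 and 135 CPM in the Endothelial and at 27.4, 5.06, 20.8 and 36.7 CPM in the DoubleNegative sums. The gates did not overlap, and the difference was 2.63 log2 (SE 0.46, adjusted p = 0.00223, edgeR). Jag2 was scarce, at 5.58, 1.41, 7.03 and 3.19 CPM in the Endothelial sums, with 1 count in all DoubleNegative wells. Its level over all Endothelial wells was 109 times that over the DoubleNegative wells, a ratio that rests on this 1 count. Its direction was fixed by the filter, so no test of Jag2 between the gates is given.

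The 2 target genes differed in their pattern. Hey2 was read at 117, 184, 189.6 and 161 CPM in the Endothelial and at 38.9, 39.5, 15.3 and 29.1 CPM in the DoubleNegative sums. It was 2.28 log2 higher in the Endothelial wells (SE 0.34, adjusted p = 0.000927, edgeR), and the gates did not overlap. Hey1 was read at 15.1, 7.15, 14.2 and 9.92 CPM in the Endothelial and at 0.30, 0, 8.06 and 15.1 CPM in the DoubleNegative sums, which overlapped (0.87 log2, SE 1.06, adjusted p = 0.663, edgeR). A single well held 100% of the Hey1 counts of the KO sort 1 and 92.9% of those of the KO sort 2 DoubleNegative sum.

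Of the arterial genes, Efnb2 was read at 168, 253, 174 and 227 CPM in the Endothelial and at 25.2, 38.5, 9.86 and 2.16 CPM in the DoubleNegative sums, a difference of 3.32 log2 (SE 0.59, adjusted p = 0.00251, edgeR). Without the endothelial-like well the WT sort 2 DoubleNegative level was 17.9 CPM. Sox17, a transcription factor of arterial endothelium, was read at 122, 161, 179.6 and 177 CPM in the Endothelial sums and had no count in the DoubleNegative wells. It was at least 958-fold higher in the Endothelial wells against the floor. Among the members over the cutoff of the filter in sums of both gates, Hey1 alone overlapped between the gates. Of all genes tested 26.8% did not overlap, 17.4% with the Endothelial and 9.41% with the DoubleNegative sums higher.

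The DoubleNegative wells were then read by their cell class. In the 70 smooth muscle-like wells Notch3 stood at 41.3 CPM with a count in 38.6% of wells (exact 95% interval 27.2% to 51.0%). In the 37 fibroblast-like wells it stood at 2.62 CPM with a count in 1 well. Jag1 was at 13.9 CPM in the smooth muscle-like and at 39.5 CPM in the fibroblast-like wells. Hey2 was at 27.6 and 23.4 CPM. It had a count in 38.6% of the smooth muscle-like and in 10.8% of the fibroblast-like wells. One fibroblast-like well held 144 of the 152 counts, and without it the level was 1.34 CPM. Efnb2 was at 21.3 and 5.39 CPM, with 71.4% of its fibroblast-like counts in 1 well. The smooth muscle-like wells of WT sort 1, WT sort 2, KO sort 1 and KO sort 2 had Notch3 at 73.5, 44.3, 30.5 and 36.9 CPM, so that both KO values lay under both WT values. With every well thinned to 20000 counts, a Notch3 count was found in 37.5%, 40.0%, 16.1% and 46.2% of these wells, which overlapped between the genotypes. Heyl, the Hey family member of mural cells, was at 458 CPM in the smooth muscle-like and 43.4 CPM in the fibroblast-like wells. No test was run between these classes, since the same wells defined them.

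For levels between genes, CPM was divided by the exonic length in kilobases (kb). In the Endothelial wells Hey2 came first with 35.5 ± 7.21 CPM per kb (mean ± SD, n = 4 sums), followed by Sox17 with 33.5 ± 5.59, Efnb2 with 29.9 ± 6.04 and Jag1 with 26.6 ± 4.33 CPM per kb. Notch1 followed with 15.6 ± 6.31, Notch4 with 13.3 ± 4.27 and Dll4 with 8.79 ± 2.43 CPM per kb. Neighbours in this order from Hey2 to Dll4 overlapped in their ranges over the 4 sums. Hey1 (3.55 ± 1.14 CPM per kb), Jag2 (0.62 ± 0.36) and Notch3 (0.07 ± 0.09) each lay below the one before without overlap. In the DoubleNegative wells Hey2 (6.68 ± 2.47 CPM per kb) and Notch3 (3.90 ± 0.87) came first, and all neighbours overlapped. Of the summed per-length level of the 4 Notch receptors, Notch1 made up 44.7% ± 6.95 and Notch4 39.3% ± 6.74 in the Endothelial sums (SD, n = 4). In the DoubleNegative sums Notch2, the broadly expressed receptor, made up 70.8% ± 11.4 and Notch3 21.1% ± 5.43. These shares and the order per kb depend on the lengths used, 14232 bases of merged exons for Notch1 and 8061 for Notch4. Without division by length, Notch1 averaged 222 CPM and Notch4 107 CPM over the Endothelial sums.

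The order of the members by share of wells with a count was not that of their levels per kb. Over the 676 Endothelial wells a Notch1 count was found in 93.0%, an Efnb2 count in 82.7%, a Jag1 count in 82.5%, a Sox17 count in 76.0%, a Hey2 count in 68.9% and a Notch4 count in 68.8%. Dll4 was found in 32.0%, Hey1 in 10.8%, Jag2 in 7.69% and Notch3 in 1.92% of these wells. With each well thinned to 20000 counts the shares were 82.2%, 69.8%, 65.8%, 65.4%, 57.4% and 52.5% for the first 6 genes and 23.4%, 7.54%, 3.85% and 1.18% for the last 4. In the DoubleNegative wells the corresponding unthinned shares were 11.1% for Notch1, 25.9% for Efnb2, 33.3% for Jag1, 28.7% for Hey2 and 2.78% for Notch4. The median well held 159625 gene counts in the Endothelial and 117927 in the DoubleNegative gate.

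**Figure D2:**
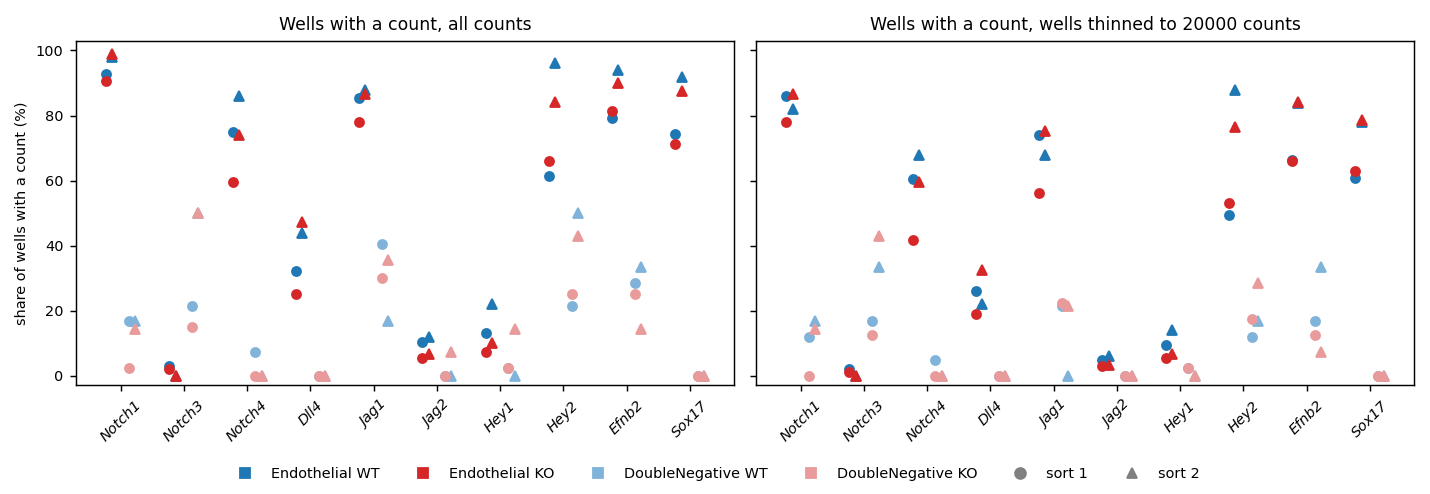
Share of wells with at least 1 count of each member (percent) per gate, genotype and sort, with all counts on the left and with every well thinned to 20000 counts on the right. In the Endothelial wells Notch1 stands above 90% in every sum with all counts, whereas Dll4 spans 25.2% to 47.2%.

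In sort 2 both genotypes had higher Hey2 shares than in sort 1. With thinning, a Hey2 count was found in 49.4% of WT and 53.0% of KO Endothelial wells of sort 1, and in 88.0% and 76.4% of those of sort 2. Most endothelial cells carried both endothelial receptors: 65.4% of Endothelial wells had counts of Notch1 and Notch4 (exact 95% interval 61.7% to 69.0%), 27.7% of Notch1 alone and 3.4% of Notch4 alone. A count of Notch1, Notch3 or Notch4 together with a count of Dll4, Jag1 or Jag2 was found in 83.4% (80.4% to 86.2%). The receptor Notch2 and the ligand Dll1 were not part of this combination. Jag1 without Dll4 was found in 53.7%, both in 28.8% and Dll4 without Jag1 in 3.1%. Hey2 without Hey1 was found in 60.7% and both in 8.3%. These combinations depend on depth, since thinning lowered the share with both receptors to 45.3%. The median Endothelial well had a count of 5 of the 10 members, and the median DoubleNegative well of 1.

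Whether loss of Amotl2 changes these genes in endothelial cells was asked by comparing the 2 KO with the 2 WT Endothelial sums. No member passed the test, and neither did any of the 12702 genes tested (0.0%, edgeR), with 468 genes (3.68%) at an unadjusted p under 0.05 and 37 genes called by DESeq2, none of them a member. Of the members, 5 had a higher and 5 a lower fitted level in KO, with a median of 0.03 log2 beside 0.00 over all genes tested. Leaving out 1 sum gave 5 calls without KO sort 1, 35 without KO sort 2, 311 without WT sort 1 and 221 without WT sort 2, again none of them a member.

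Notch4 had the smallest p of the members. Its KO levels of 80.3 and 87.4 CPM lay below its WT levels of 157 and 106 CPM, a difference of -0.63 log2 (SE 0.29, 95% interval -1.28 to 0.02, unadjusted p = 0.0567, adjusted p = 0.9995, edgeR). The KO level was lower by 0.96 log2 within sort 1 (-0.96) and by 0.27 within sort 2 (-0.27). One well held 41.0% of the Notch4 counts of WT sort 2. With the top well of each sum left out, the levels were 151 and 75.6 CPM in WT and 77.9 and 82.6 CPM in KO, which overlapped.

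Jag1 was at 133 and 135 CPM in KO against 184 and 168 CPM in WT (-0.39 log2, SE 0.25, 95% interval -0.95 to 0.18, adjusted p = 0.9995, edgeR). Without the top wells it was at 126 and 124 CPM in KO and at 175 and 136 CPM in WT, which still did not overlap, whereas thinned wells gave 128 and 148 CPM in KO and 231 and 140.0 CPM in WT. Sox17 ran the other way, at 179.6 and 177 CPM in KO and 122 and 161 CPM in WT (0.34 log2, SE 0.27, 95% interval -0.27 to 0.95, adjusted p = 0.9995, edgeR). Its ranges overlapped without the top wells. These 3 members were the ones whose KO and WT sums did not overlap, which 29.5% of all genes tested did not either. Without the top wells this held for 1 member.

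**Figure D3:**
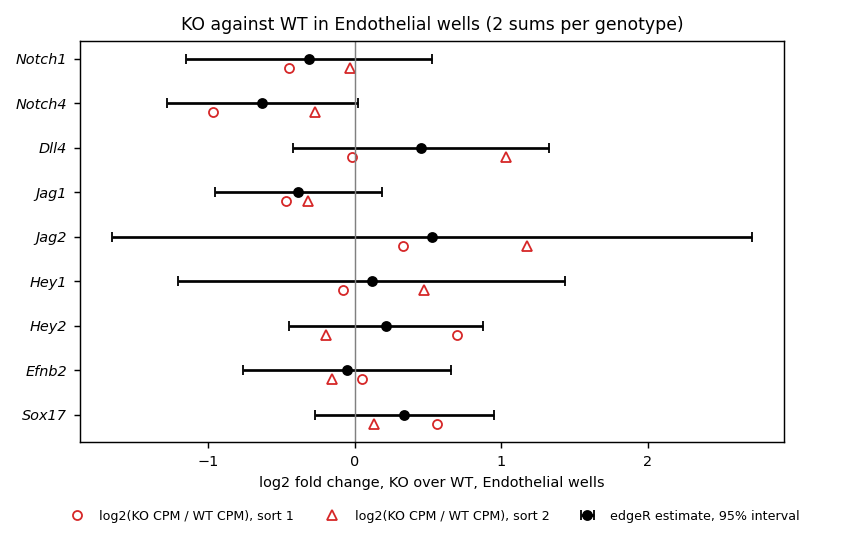
Log2 fold change of KO over WT in Endothelial wells for 9 members, with the edgeR estimate and its 95% interval in black and the ratio of CPM within each sort in red. All 9 intervals include 0. Notch3, with no count in 2 of the 4 sums, is left out.

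The other members gave smaller or wider differences. Notch1 differed by -0.31 log2 (95% interval -1.15 to 0.53), Hey2 by 0.22 (-0.45 to 0.88), Efnb2 by -0.05 (-0.76 to 0.66), Dll4 by 0.45 (-0.42 to 1.32), Hey1 by 0.12 (-1.20 to 1.44) and Jag2 by 0.53 (-1.66 to 2.71). The interval of Efnb2 excludes a change of 1 log2 unit in either direction, and that of Hey2 likewise. Those of Jag2, Hey1, Dll4 and Notch1 include a change of 1 log2 unit in at least 1 direction. On simulated counts with 200 genes changed by 1 log2 unit, this comparison recovered 0% of them, and 73.5% of genes changed by 3 log2 units.

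The make-up of the Endothelial sums moved with genotype in sort 1. The cluster led by the class II antigen presentation genes Cd74 and H2-Aa held 66.0% of the WT sort 1 Endothelial wells, 0.3% of the KO sort 1 wells and none of the sort 2 wells. Notch4 was at 178 CPM and Notch1 at 365 CPM in this cluster, their highest or second highest cluster level. Within the cluster led by Frzb and Thbs1, Notch4 was at 68.4 and 115 CPM in WT and at 84.4 and 101 CPM in KO, which overlapped. One WT sort 2 well held 61.6% of the Notch4 counts behind the 115 CPM. Without it the level was 62.1 CPM, and both WT values lay under both KO values. Within the cluster led by Gkn3 and Nt5e it was at 133 and 86.2 CPM in WT and at 78.4 and 80.3 CPM in KO, so that the order of the genotypes was the opposite. Jag1 in the Frzb and Thbs1 cluster was at 175 and 182 CPM in WT (126 CPM in WT sort 2 without its top well) and at 102.9 and 105 CPM in KO, and in the Gkn3 and Nt5e cluster at 193 and 96.1 CPM in WT and at 172 and 162 CPM in KO. The part of the cluster make-up in the genotype differences was not tested.

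In the DoubleNegative wells 6 members passed the filter and none was called, nor was any of the 10544 genes tested (0.0%, edgeR), with 275 genes (2.61%) at an unadjusted p under 0.05 and 5 called by DESeq2. Without KO sort 1, KO sort 2, WT sort 1 and WT sort 2 the number of calls was 0, 15, 45 and 79. Notch3 differed by -0.31 log2 (SE 0.76), Jag1 by 0.78 (SE 1.04) and Hey2 by -0.81 (SE 0.80). Efnb2 was lower in KO by the fitted difference (-2.31 log2, SE 1.102, unadjusted p = 0.0666), with 9.86 and 2.16 CPM against 25.2 and 38.5 CPM. The last value was 17.9 CPM without the endothelial-like well. Hey1 had the only unadjusted p under 0.05 among the members (5.54 log2, SE 2.10, p = 0.0276, adjusted p = 1, edgeR), and its KO level rested on the single wells given above. The DoubleNegative wells of WT sort 1 were 26 fibroblast-like and 16 smooth muscle-like, those of KO sort 1 9 and 31, so cell class moved with genotype here. Its part was not tested.

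The difference between the genotype effects of the gates was tested as an interaction over the 8 sums. No gene of 12729 was called (0.0%, edgeR), with 657 (5.16%) at an unadjusted p under 0.05 and 47 called by DESeq2, and no member was called by either tool. Without WT sort 1 of the DoubleNegative wells 42 genes were called, none of them a member. With no filter on low counts Notch4 was called, where 3 of the 4 DoubleNegative sums have no count of it.

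Clustering of the 784 wells gave 7 clusters, of which 5 were endothelial-like. Only Hey1 and Hey2 of the members were among the 2000 variable genes used, and leaving out all members and pathway genes kept the 23 wells of the smallest cluster together. The levels by cluster are a description, with no test. The 3 large endothelial-like clusters, led by Frzb and Thbs1 (249 wells), by Gkn3 and Nt5e (200 wells) and by Cd74 and H2-Aa (156 wells), all had Notch1, Notch4, Jag1, Hey2, Efnb2 and Sox17. Sox17 was at 114, 253 and 106 CPM in them and Dll4 at 20.4, 49.8 and 34.3 CPM, both highest in the Gkn3 and Nt5e cluster. Hey2 was at 192, 198 and 132 CPM. These levels pool the sums, and 155 of the 156 wells of the Cd74 and H2-Aa cluster were of WT sort 1. In WT sort 1 alone Hey2 was at 96.1, 135 and 131 CPM in the 3 clusters. Sox17 was at 53.8, 255 and 106 CPM there, and Dll4 at 7.68, 46.7 and 34.3 CPM.

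**Figure D4:**
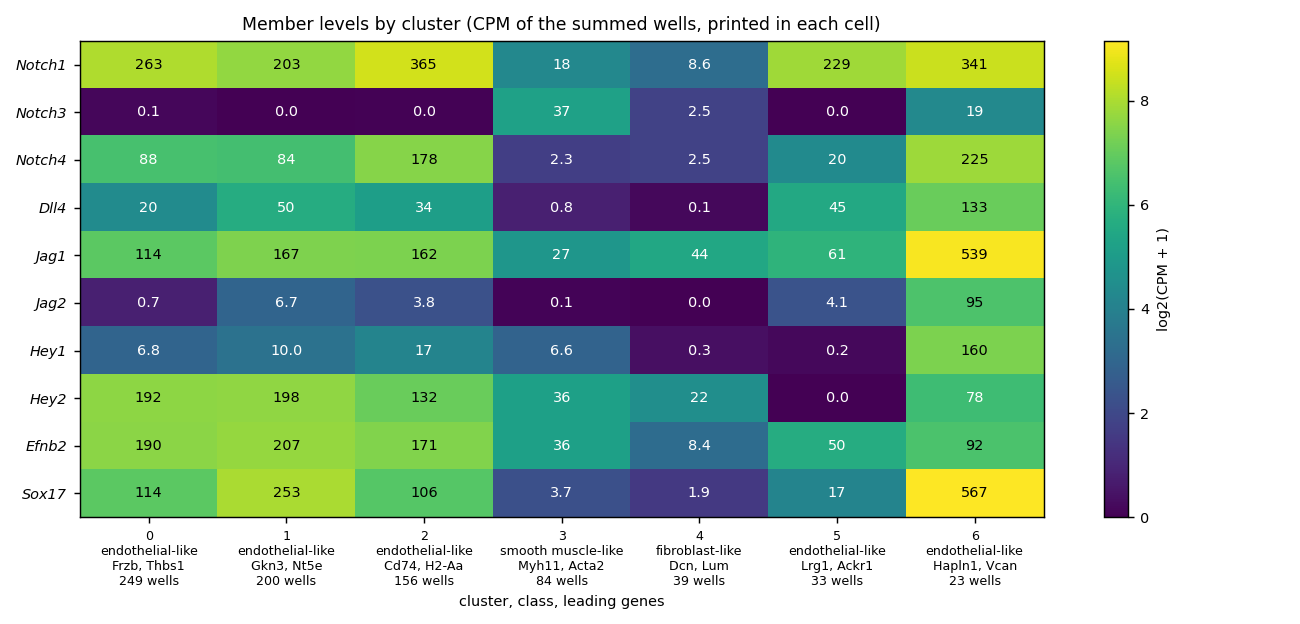
Level of each member in the 7 clusters, as CPM of the summed wells (printed) and as log2(CPM + 1) (colour), with the leading genes and number of wells under each column. The 23-well cluster led by Hapln1 and Vcan has the highest level of 6 members, and the cluster led by Lrg1 and Ackr1 has no Hey2 count.

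The smallest endothelial-like cluster, 23 wells led by Slc6a6, Hapln1 and Vcan, had the highest level of 6 members. Sox17 was at 567 CPM with a count in 100% of its wells, Jag1 at 539 CPM, Notch4 at 225 CPM, Hey1 at 160.2 CPM, Dll4 at 133 CPM and Jag2 at 94.9 CPM. Its Jag2 counts were 435 of the 933 of the Endothelial gate. Jag2 had a count in 73.9% of its wells and in 1.2% to 9.1% of those of the other endothelial-like clusters, and Hey1 in 47.8% against 3.0% to 14.1%. One well held 48.8% of its Hey1 and 37.5% of its Jag2 counts. Notch3 had a count in 17.4% of its wells, at 18.8 CPM. Pooled over the sums, Hey2 at 77.9 CPM and Efnb2 at 92.3 CPM lay below the 3 large endothelial-like clusters. Of its wells 9 were KO sort 1, 12 WT sort 1 and 2 WT sort 2. Sox17 was at 596, 447 and 995 CPM in these and Jag1 at 305, 912 and 1094 CPM, each above its level in all 4 whole Endothelial sums. Hey2 was at 52.8, 101 and 253 CPM, the last from 1 well. The Frzb and Thbs1 cluster had Hey2 at 202 CPM in KO sort 1, 96.1 in WT sort 1 and 173 in WT sort 2, so Hey2 was not lower in every sum. Efnb2 at 111, 43.9 and 167 CPM lay below the Frzb and Thbs1 and the Gkn3 and Nt5e clusters in each of these sums. The Notch target Hes1 was also highest here, at 270.0 CPM, and Heyl was at 52.6 CPM.

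The cluster led by Lrg1, Aqp1, Cd36 and Ackr1 (33 wells) had no Hey2 count in any well, a Sox17 count in 18.2%, a Notch4 count in 15.2% and a Hey1 count in 3.0% of wells. Efnb2 was at 49.6 CPM, against 171 to 207 CPM in the 3 large endothelial-like clusters, and Gja5, the arterial connexin, was at 0.31 CPM. Notch1 at 229 CPM and Dll4 at 45.3 CPM remained within the range of those clusters, and the Notch ligand Dll1 was at 320.4 CPM, its highest level, with 61.9% of those counts in 1 well. One well also held 89.7% of the Notch4 and 73.6% of the Sox17 counts of this cluster. The venous transcription factor Nr2f2 was at 313 CPM and the venous and lymphatic genes Nrp2, Aplnr and Lyve1 at 408, 188 and 134 CPM, Lyve1 in 9.1% of wells. All were at or below 1.11 CPM in the other endothelial-like clusters except Nr2f2, which was at 5.24 CPM in the 23-well cluster. They were picked from a list of 8 venous and lymphatic genes, and Ephb4, Emcn, Flt4 and Prox1 of that list are not given by cluster here. The leading genes of the 33-well cluster also held Fabp4 and Gpihbp1, and it is given no vessel type here. The 33 wells were 19 of WT sort 1, 11 of KO sort 1 and 3 of KO sort 2.

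Co-expression was read over the Endothelial wells as Pearson's r of log2(CPM + 1), within each of the 4 sums (235, 50, 302 and 89 wells) and then averaged. Wells of 1 sum share library and depth, so the values are a description. They were low: over the 36 of 45 pairs with a value in every sum the largest mean was 0.30, and 4 pairs reached 0.2. Pairs with Notch3 lacked a value in some sums and have no mean. The pair with the highest mean was Hey2 and Efnb2 (0.30), with 0.21, 0.47, 0.19 and 0.33 in the 4 sums. Dll4 and Jag2 followed (0.24, range 0.19 to 0.39), then Jag2 with Sox17 (0.21, 0.16 to 0.31) and Jag1 with Jag2 (0.20, 0.08 to 0.31). With thinned wells the Hey2 and Efnb2 value was 0.21 and that of Dll4 and Jag2 0.24. Hey2 and Hey1 gave a mean of -0.05, and Notch1 and Notch4 one of 0.06. The correlation of Efnb2 itself with the depth of the well reached 0.43 in 1 sum.

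**Figure D5:**
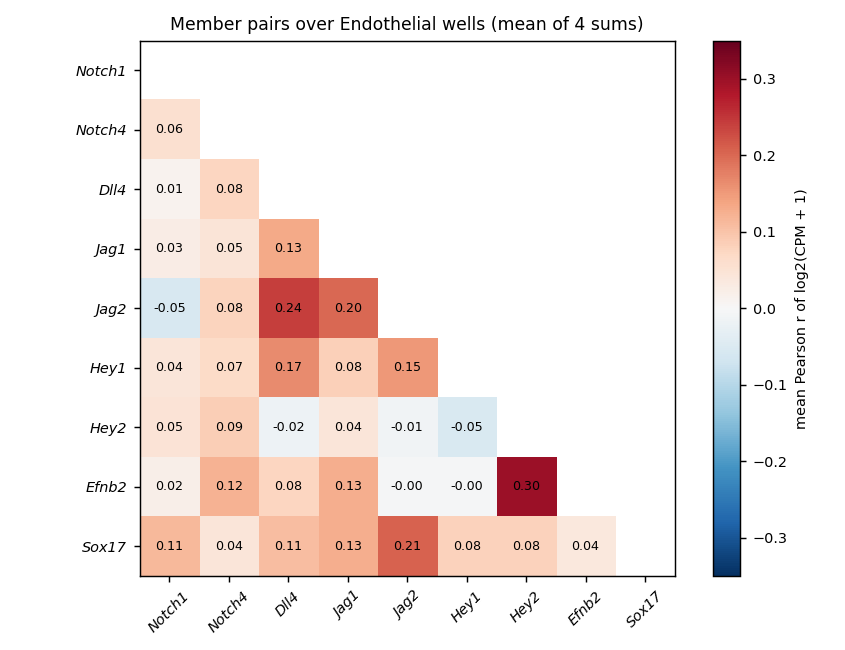
Mean Pearson's r of log2(CPM + 1) over the 4 Endothelial sums for each pair of 9 members. Hey2 with Efnb2 (0.30) and Dll4 with Jag2 (0.24) are the highest values, and Notch3, with no count in 2 of the sums, is left out.

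For the 8 members with a count in at least 10% of Endothelial wells, the gene most alike in pattern was sought among 9325 others by the same mean r. Efnb2 lay nearest to Bmp4 (0.48, range 0.34 to 0.64 over the 4 sums), a BMP ligand, and to Edn1 (0.40), the gene of endothelin-1, and then to Gcnt1 (0.36). Hey2 lay nearest to Efna5 (0.35), an ephrin ligand, Sfrp1 (0.33), a secreted Wnt inhibitor, and Smoc1 (0.32). Jag1 lay nearest to Cdh13 (0.31), Cx3cl1 (0.25) and Nckap1 (0.24). Notch4 lay nearest to Jup (0.31), the gene of plakoglobin, Uaca (0.27) and Pnpla6 (0.25). Sox17 lay nearest to Igf2 (0.30), Adgrg1 (0.29) and Wfdc1 (0.27). Notch1 lay nearest to Plekha6 (0.29), Pld1 (0.24) and Cdh5 (0.23), Dll4 to Cd38 (0.27), Ptchd1 (0.25) and Elf1 (0.24), and Hey1 to Pcdhgb4 (0.22), Pradc1 (0.22) and Wdfy1 (0.20). Each is among the highest of 9325 values, and the level that chance alone gives was not computed. The range over the 4 sums could be wide, from -0.05 to 0.69 for Hey1 with Pcdhgb4 and from 0.06 to 0.40 for Dll4 with Ptchd1. In thinned wells 23 of these 24 values were lower, from 0.05 (Notch1 with Pld1) to 0.39 (Efnb2 with Bmp4). Thinned wells gave 0.11 for Notch1 with Cdh5, and for Notch4 0.15 with Jup and 0.07 with Uaca, so the genes named for these receptors depended on this setting.

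The rest of the pathway was read from a list of 39 genes. Between the gates 34 were tested, of which 6 were called higher in the Endothelial wells and 2 lower. Of all genes tested 9.57% were called higher and 9.55% lower. The 6 include Dll1, Nrarp and Mfng, whose direction was fixed by the filter. Higher were the ligand Dll1 and the Notch feedback gene Nrarp, both with no count in the DoubleNegative wells and at least 806- and 270-fold over the floor, and the glycosyltransferase gene Mfng, at least 547-fold. Egfl7, a secreted endothelial protein, was higher by 6.83 log2 (SE 1.78), the receptor sheddase Adam10 by 3.08 (SE 0.49) and the gamma-secretase subunit Aph1b by 3.28 (SE 0.88). Notch2 was lower, at 58.5, 51.9, 62.8 and 50.8 CPM in the Endothelial against 197, 131, 147 and 104 CPM in the DoubleNegative sums (-1.51 log2, SE 0.25, adjusted p = 0.001675, edgeR). Heyl was lower as well, at 4.60 to 17.5 CPM against 187 to 392 CPM (-5.07 log2, SE 0.44). The list had a median of 0.20 log2 beside 0.04 over all genes tested. Dll1, Nrarp and Mfng, and Sema3g, Emcn and Flt4 below, passed the filter through the Endothelial sums alone, which fixed their direction. Their levels are given as a description.

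Of 12 further arterial genes 11 were tested and 7 were higher in the Endothelial wells: Sema3g (at least 120.2-fold over the floor), Gkn3, Sox18, Gja4, Sox7, Nrp1 (2.39 log2, SE 0.34) and Acvrl1 (2.12 log2, SE 0.65). Of 8 venous and lymphatic genes 5 were tested and 3 were higher, Emcn and Flt4 (at least 1516- and 188-fold over the floor) and the ephrin receptor Ephb4 (2.90 log2, SE 0.58). These counts include Sema3g, Emcn and Flt4, whose direction was fixed by the filter. Of all genes tested 9.57% were called higher.

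Between KO and WT Endothelial wells no gene of these lists was called. Of 35 pathway genes tested 15 were fitted higher and 20 lower in KO, with a median of -0.14 log2, and those with the largest fitted changes were Dtx2 (-1.43 log2, SE 0.56), Mib2 (-1.35, SE 0.51) and Lfng (-1.16, SE 0.69), each at an adjusted p of 0.9995 (edgeR). Of the 35, 4 had an unadjusted p under 0.05 in edgeR, Dtx2 and Mib2 and the higher fitted Hes1 (0.92 log2, SE 0.31, p = 0.0159) and Dll1 (0.61 log2, SE 0.26, p = 0.0423), the last 2 named after their values were seen. Among 11 arterial genes the largest were Sema3g (-1.03 log2, SE 0.56), Unc5b (-0.48, SE 0.67) and Acvrl1 (-0.39, SE 0.27). Among 8 venous and lymphatic genes they were Lyve1 (4.44 log2, SE 1.76), Nr2f2 (-2.05, SE 1.41) and Aplnr (1.83, SE 1.37), all of which had most of their endothelial counts in the 33-well cluster. In the DoubleNegative wells none of the 28 pathway, 6 arterial and 2 venous or lymphatic genes tested was called, with the largest fitted changes in Maml3 (-8.00 log2, SE 2.84), Maml1 (4.23, SE 1.43), Aph1b (-3.72, SE 1.39), Sox7 (-2.99, SE 1.85), Acvrl1 (-2.07, SE 0.90) and Unc5b (-1.34, SE 1.99).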

How the data were processed

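Single cells of mouse aorta were sorted into plates and sequenced with Smart-seq2. Per the labels and the study's methods, the authors aligned reads with STAR 2.7.7a to GRCm38 with ERCC and EYFP sequences, removed duplicates with Picard 2.22.0 and counted genes with HTSeq 0.9.1. The deposited values are raw counts per gene and well. The protocol has no molecular identifiers, so counts are reads after duplicate removal, not molecules. The annotation release and strand setting are not given in the sources used here. Gene lines took 51.9%, ERCC lines 1.25% and the HTSeq summary lines 46.9% of all counts, and neither ERCC nor summary lines entered a library size or a test.

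Wells with at least 20000 gene counts and 500 genes were kept and summed per gate, genotype and sort. The sums were tested in R 4.3.3 with edgeR 4.0.16 (TMM, filterByExpr, quasi-likelihood test), with Benjamini-Hochberg adjustment over all genes tested and a threshold of 0.05. DESeq2 1.42.0, other scalings, filters, depths and left-out sums were alternatives. The test script was checked on simulated counts. Shares have exact (Clopper-Pearson) 95% intervals, which, like the floor of 3 counts, cover counting error only. Wells were clustered in Seurat 5.3.0 (2000 variable genes, 30 dimensions, resolution 0.5). A cluster took the class with the largest share of its markers detected in at least 25% of wells, with 3 or more markers. No doublet caller was run on these plate-sorted wells. Thinning drew 20000 counts per well without replacement. Exonic lengths are from GENCODE M21, with exons merged.

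The members and the lists of pathway, arterial and venous genes were chosen with earlier results of these data known. Text names list genes past the threshold, and otherwise up to 3 with the largest change; the 3 genes most alike each member; and Amotl2 and EYFP as a check. Other genes of the cluster descriptions and single wells were named after their values were seen. Endothelial and DoubleNegative sums of the same genotype and sort come from the same preparation, and their deviations from the gate means correlated by 0.02 to 0.09. WT and KO sums of the same sort number share a number that the labels call a sort (r = 0.14 in Endothelial wells).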

Additional observations from a re-analysis of the deposited data

Results flagged for a closer look

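Over the 4 DoubleNegative sums, Notch4 was highest in WT sort 1, at 3.17 CPM, with no count in the other 3 sums. Jag2 was highest in KO sort 2, at 1.08 CPM, from 1 count, with no count in the others. In both, the gap of the highest sum to the next was the whole range and so passed Dixon's test for 4 values, which the 3 sums at 0 fixed whatever the size of the fourth. The test was made for 18 sets of 4 sums (members by gate), 2 of which passed, and chance alone passes about 1 in 20 groups.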

How the results depend on the processing

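In the comparison of KO and WT Endothelial wells, the number of genes called was 0 and became 1 with RLE size factors, with no scaling factors (added after the data were seen), with the replicate block and with endothelial-like wells that have a Cdh5 or Pecam1 count. It was 104 with no filter on low counts, 37 with DESeq2, 8 with thinned wells, and 5 to 311 with 1 sum left out. No member was called in any of these. With thinned wells the fitted changes of Dll4 (-0.16 log2), Jag2 (-0.79), Hey1 (-0.29) and Efnb2 (0.084) turned sign. With 1 sum left out, Notch1 ran from -0.76 to 0.34, Hey2 from -0.10 to 0.61, Efnb2 from -0.37 to 0.30, Hey1 from -0.30 to 0.73, Jag2 from -0.12 to 1.82 and Notch3 from -6.68 to 7.59 log2. Notch4, Jag1 and Sox17 kept their direction in every fit run. Their KO and WT sums did not overlap, so leaving out 1 sum could hardly turn their direction. In the DoubleNegative wells the calls rose from 0 to 24 with no filter, 5 with DESeq2 and 0 to 79 with 1 sum left out, and the 6 members kept their direction. For the interaction they rose from 0 to 163 with no filter, 1 of them the member Notch4, to 47 with DESeq2 and 0 to 42 with 1 sum left out.

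Between the gates the calls stayed within 1798 and 2626 with 1 sum left out and were 1867 with the replicate block. All 10 members kept their direction, which the filter had fixed for Dll4, Jag2 and Sox17. The block is backed here by the shared preparation. It ended the call of Notch1, whereas Notch3, Jag1, Hey2 and Efnb2 stayed called. With no scaling factors the median of all genes moved from 0.04 to 0.18 log2. The mean share of wells with a count over the 10 members fell from 52.4% to 42.9% with thinning, and the pairs with a mean r of at least 0.2 went from 4 to 2. The number of members highest in the 23-well cluster stayed 6 under both other clusterings. The causes of these moves were not tested. Depth limits the scarce genes most: a DoubleNegative sum of 926398 counts has a floor of 3.24 CPM at 3 counts, above the levels of Notch4 and Jag2 there.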
